A study of Mus musculus with 19 samples.

Results

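Interferon-stimulated genes were followed in sorted endothelial cells of mouse lymphoid tissue. The set was a fixed list of 45 genes, and a gene counted as measured when at least 1 probe set carried its symbol and no other. By that rule 38 of the 45 were measured, among 19938 genes with a symbol of their own on the array. Isg15, Igtp, Irgm2, Tgtp1, Gbp2 and Gbp6 lay only on probe sets shared with other genes, and Ifi44 had no probe set under its name, so these 7 were not analysed here.

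The study set high endothelial cells (HEC), which line the venules where lymphocytes enter lymphoid tissue, beside capillary endothelium of 3 tissues. Total RNA was hybridised to 19 single-channel whole-transcript arrays, 11 of HEC and 8 of capillary cells. Every group came from Balb/c mice, an inbred strain, pooled in equal parts from males and females at 6 to 8 weeks of age, and the labels name no treatment or allele. Peripheral lymph nodes gave 3 capillary and 4 HEC arrays, mesenteric lymph nodes 2 capillary and 4 HEC arrays, and Peyer's patches, follicles of the gut wall, 3 of each. Of the mesenteric HEC, 2 arrays held cells sorted as MAdCAM1+/PNAd+ and 2 held cells sorted as MAdCAM1+, where MAdCAM1 is the mucosal addressin and PNAd the peripheral addressin. The gates of the other sorts are not given in the sources used here. The titles number the arrays without saying whether each is its own sort or set of animals. P-values therefore cover only the variation among these arrays, part of which may be technical.

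Interferons are secreted signals that most cells answer through a pair of receptor chains, Janus kinases and transcription factors of the STAT and IRF families. Type I and type III interferons act through the complex of Stat2 and Irf9 on the interferon-stimulated response element, and interferon gamma acts through the gamma-activated site. Their targets include proteins that block virus replication, GTPases that attack the vacuoles of intracellular microbes, and the machinery that loads peptides on MHC class I. Even without infection, tissues hold a low tonic level of this programme.

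Promoter windows are shown to place the 2 classes of response element beside the genes whose values are described next. They are RefSeq sequences of assembly GRCm38.p6, 5′ to 3′ on the strand of the gene and upstream of an annotated start. Capitals mark GAAA, any 2 bases and GAAA, the core of the interferon-stimulated response element, or TTCNNNGAA, the core of the gamma-activated site. Each was searched on both strands, so a core on the other strand reads as its reverse complement. The Ifit1 window at chr19:34640770-34640828 (plus strand) holds 2 response element cores, and that of Rsad2 at chr12:26456548-26456587 (minus strand) holds 1. The Oas3 window at chr5:120777710-120777749 (minus strand) also holds 1. The Irgm1 window at chr11:48871421-48871465 (minus strand) holds 2 that overlap, so their capitals run together. The Irf1 window at chr11:53769909-53769947 (plus strand) holds 1 gamma-activated site core. The Gbp5 window at chr3:142496684-142496905 (plus strand) holds 2 of these cores and 1 response element core.
Ifit1: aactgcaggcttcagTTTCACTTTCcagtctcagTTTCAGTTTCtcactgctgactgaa
Rsad2: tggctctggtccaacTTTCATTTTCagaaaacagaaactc
Oas3: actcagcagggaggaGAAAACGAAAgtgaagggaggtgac
Irgm1: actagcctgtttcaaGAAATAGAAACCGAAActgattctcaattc
Irf1: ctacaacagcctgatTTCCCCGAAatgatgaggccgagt
Gbp5: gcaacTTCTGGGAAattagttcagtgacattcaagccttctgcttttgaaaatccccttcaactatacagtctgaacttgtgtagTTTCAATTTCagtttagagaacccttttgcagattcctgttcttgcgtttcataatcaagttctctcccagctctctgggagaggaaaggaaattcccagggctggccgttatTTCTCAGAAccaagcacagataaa

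Among promoters of 300 bases (250 before and 50 after a start), 33 of the 45 genes were found in the RefSeq table. The response element core occurred in 20 of their 38 promoters (52.63%) and in 1131 of all 32851 promoters (3.443%). The gamma-activated site core occurred in 12 of the 38 (31.58%) and in 2726 of all (8.298%). A match here is a run of letters and not a measured binding site, and a match to one motif may overlap a match to the other.

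Values are log2 signals that were centred for each probe set before deposit. They give differences of one gene between arrays, while the level of a gene, its signal over background and its rank among other genes stay unknown. The sorts carried their labels: all 8 high endothelial markers were higher and all 7 capillary markers lower in HEC. Peripheral capillary arrays 1 and 2 stood apart, since the mean of the 8 high endothelial markers was 1.19 and 1.02 there, 0.30 on array 3 of that group and -0.79 to -0.04 on the other 5 capillary arrays. Only some of the results that rest on those arrays are also given without them. The number of arrays limits the precision, and the median SD within a group over the 38 genes was 0.12 to 0.24, against 0.09 to 0.19 over all genes.

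The first comparison asked how the programme differs between high endothelium and capillary endothelium, as the mean of the 3 tissue differences. Most of the measured genes were lower in HEC. Of 38, 23 were called lower and 1 higher at an adjusted p under 0.05 (limma, Benjamini-Hochberg over all genes), and 14 did not pass. Over all 19938 genes 15.9% were called lower and 18.0% higher. The median difference of the 38 genes was -0.38 log2, against -0.01 over all genes. In bulk RNA of sorted cells, fewer cells that express a gene and less RNA of it per cell cannot be told apart. The mean of the 38 genes ran from 0.14 to 0.50 on the 8 capillary arrays and from -0.35 to 0.07 on the 11 HEC arrays, so the cell types did not overlap.

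**Figure D1:**
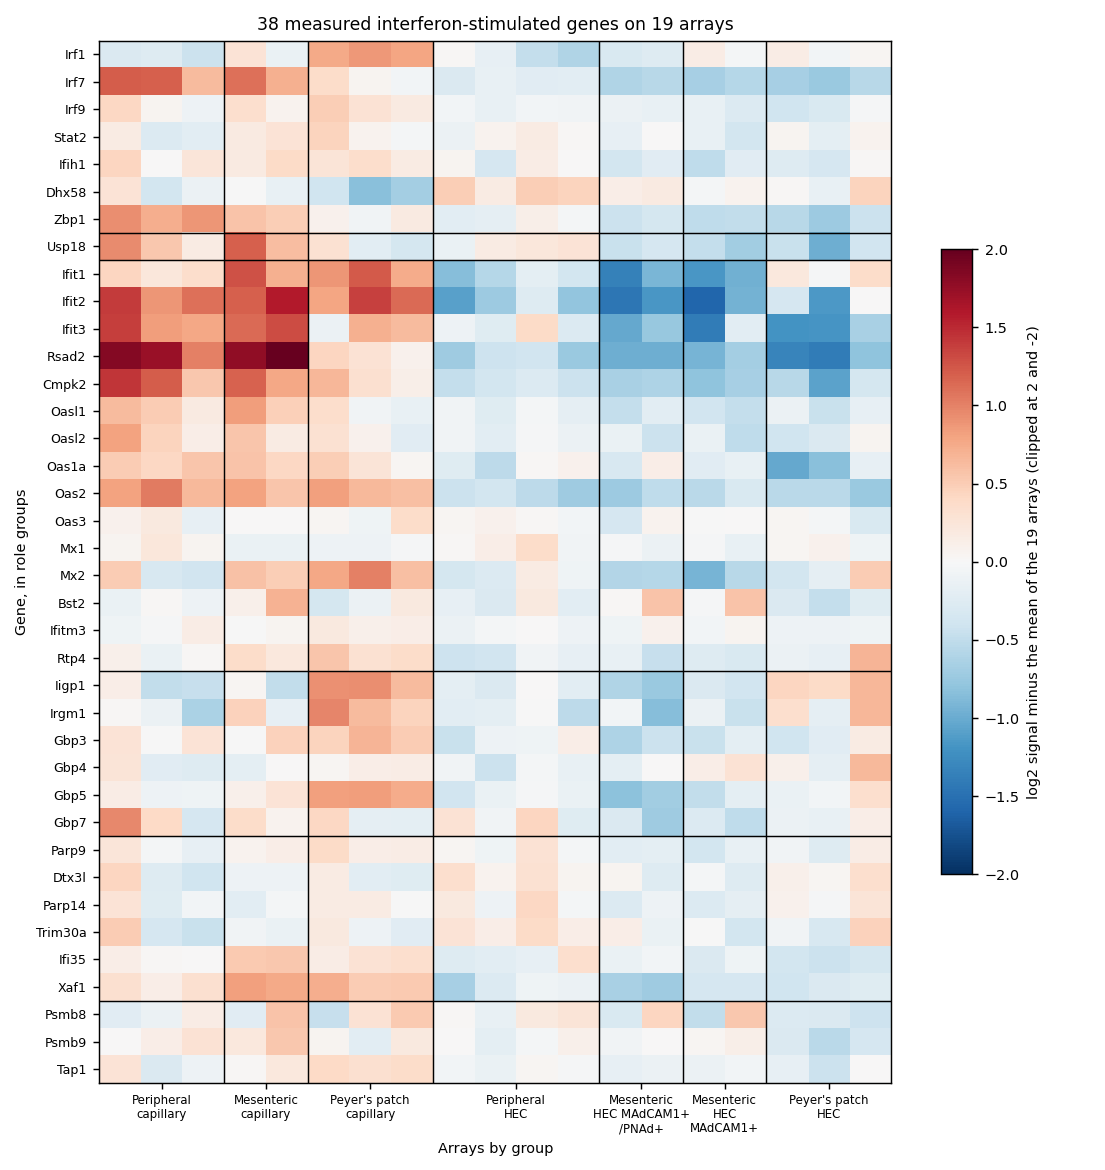
Colour gives the centred log2 signal of each measured gene minus its mean over the 19 arrays, clipped at 2 and -2, with arrays in columns by group and genes in rows by role. The 8 capillary arrays on the left are mostly red for Rsad2, the Ifit genes, Cmpk2 and Oas2, while Dhx58 is red on peripheral HEC arrays and blue on Peyer's patch capillary arrays.

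Among regulators and sensors, 5 of 7 were lower in HEC and 1 was higher. Irf7, the factor that amplifies type I interferon production, read 1.36, 1.35 and 0.77 on peripheral capillary arrays, 1.24 and 0.86 on mesenteric and 0.51, 0.20 and 0.10 on Peyer's patch capillary arrays. The HEC arrays read -0.15, 0, -0.08 and -0.06 in peripheral nodes, -0.45 and -0.42 in the MAdCAM1+/PNAd+ and -0.51 and -0.42 in the MAdCAM1+ mesenteric sort, and -0.52, -0.59 and -0.40 in Peyer's patches. Every HEC array thus lay below every capillary array, and the difference was -1.17 ± 0.08 (± SE, limma adjusted p = 4.08e-09). Zbp1, a sensor of Z-form nucleic acid that can trigger cell death, differed by -0.84 ± 0.06 (adjusted p = 4.12e-09). Its peripheral capillary arrays read 0.81, 0.60 and 0.76, the mesenteric ones 0.46 and 0.38 and those of Peyer's patches -0.02, -0.19 and 0.07, and its HEC arrays lay between -0.84 and 0. Zbp1 thus overlapped between cell types across tissues, but not within any tissue.

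The RNA sensor Ifih1 (-0.44 ± 0.08), Irf9, the DNA-binding part of the type I interferon complex (-0.38 ± 0.07), and Irf1, a factor induced above all by interferon gamma (-0.31 ± 0.08), were lower by less. In single tissues Irf9 and Irf1 passed only in Peyer's patches. Stat2, the partner of Irf9, missed the threshold at -0.14 ± 0.08 (limma adjusted p = 0.196). Dhx58 went the other way. This RNA helicase, which tunes the signalling of the other RNA sensors, read 0.76, 0.43, 0.76 and 0.71 in peripheral HEC and 0.29, 0.12 and 0.71 in Peyer's patch HEC. In capillary cells it read 0.53, -0.11 and 0.14 in peripheral nodes and -0.13, -0.56 and -0.42 in Peyer's patches. In mesenteric nodes it read 0.40 and 0.45 (MAdCAM1+/PNAd+) and 0.22 and 0.34 (MAdCAM1+) in HEC and 0.26 and 0.11 in capillary cells. The groups overlapped in peripheral and mesenteric nodes and stood apart in Peyer's patches. Over the 3 tissues Dhx58 was higher in HEC by 0.46 ± 0.10 (limma adjusted p = 0.00093), while the mesenteric difference alone, 0.17 ± 0.18, did not pass (adjusted p = 0.691). Usp18, which removes ISG15 from proteins and restrains the type I receptor, was lower in HEC (-0.77 ± 0.12, adjusted p = 7.58e-05).

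Antiviral effectors held the largest differences, and 11 of 15 were lower in HEC. Rsad2 encodes viperin, an enzyme that makes a chain-terminating nucleotide. Its peripheral capillary arrays read 1.88, 1.77 and 1.05, the mesenteric ones 1.83 and 2.22 and those of Peyer's patches 0.47, 0.33 and 0.14. Its HEC arrays read -0.67, -0.37, -0.34 and -0.69 in peripheral nodes, -0.94 and -0.93 (MAdCAM1+/PNAd+) and -0.89 and -0.63 (MAdCAM1+) in the mesenteric sorts and -1.28, -1.35 and -0.76 in Peyer's patches. All 11 HEC arrays lay below all 8 capillary arrays, with a difference of -2.13 ± 0.11 (limma adjusted p = 9.49e-11). Cmpk2, its neighbour on chromosome 12, encodes a kinase that supplies the nucleotide substrate, and it differed by -1.38 ± 0.12 (adjusted p = 5.93e-08).

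The Ifit proteins bind viral RNA ends, and Ifit1, Ifit2 and Ifit3 lie together on chromosome 19. Ifit2 read 0.87, 0.35 and 0.57 in peripheral, 0.67 and 1.06 in mesenteric and 0.26, 0.84 and 0.60 in Peyer's patch capillary cells. In HEC it read -1.62, -1.25, -0.78 and -1.31 in peripheral nodes, -1.98 and -1.70 (MAdCAM1+/PNAd+) and -2.11 and -1.48 (MAdCAM1+) in the mesenteric sorts and -0.87, -1.68 and -0.53 in Peyer's patches. The cell types did not overlap, and the difference was -2.04 ± 0.15 (limma adjusted p = 9.32e-09). Ifit3 differed by -1.51 ± 0.16 (adjusted p = 7.57e-07), with capillary arrays from -0.45 to 1.05 and HEC arrays from -1.72 to 0.06. Ifit1 differed by -1.23 ± 0.11 (adjusted p = 4.64e-08), with capillary arrays from -0.01 to 1.04 and HEC arrays from -1.59 to 0.14.

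**Figure D2:**
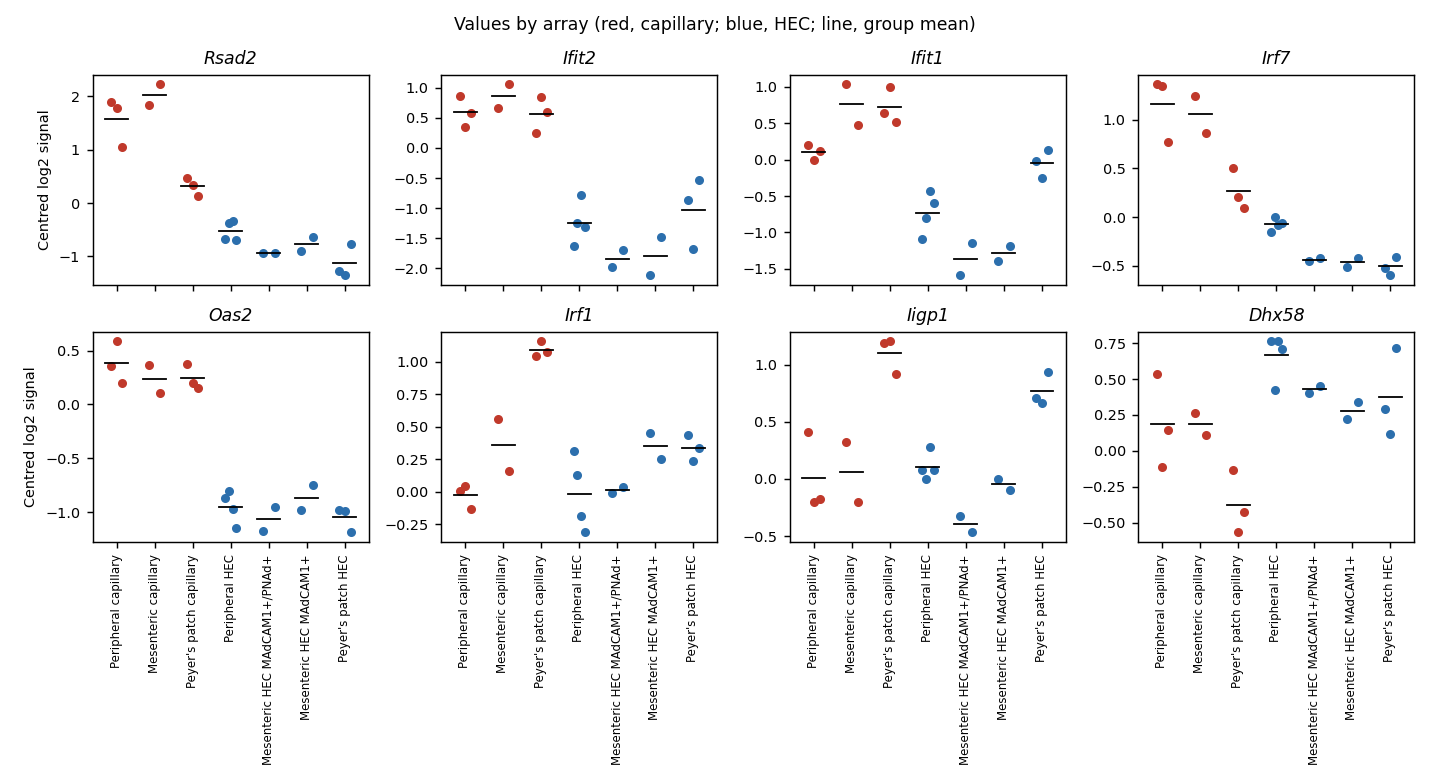
Centred log2 signal of 8 genes on each array by group, with capillary arrays in red, HEC arrays in blue and a line at the group mean. Rsad2, Ifit2, Irf7 and Oas2 separate the cell types in every tissue, Irf1 is highest on the 3 Peyer's patch capillary arrays (1.05 to 1.16), and Iigp1 is higher in both cell types of Peyer's patches.

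The oligoadenylate synthetases activate RNase L, and Oas2 was low on every HEC array. It read 0.36, 0.59 and 0.20 in peripheral, 0.36 and 0.10 in mesenteric and 0.38, 0.19 and 0.16 in Peyer's patch capillary cells, and between -1.19 and -0.75 on the 11 HEC arrays. The difference was -1.28 ± 0.07 (limma adjusted p = 1.59e-10). Oas1a (-0.74 ± 0.11), Oasl1 (-0.64 ± 0.09) and Oasl2 (-0.50 ± 0.10) were also lower, while Oas3, whose window above carries a response element core, missed the threshold at -0.10 ± 0.08 (adjusted p = 0.37). The dynamin-like GTPase Mx2 (-0.69 ± 0.13) and the receptor transport protein Rtp4 (-0.37 ± 0.10) were lower. Mx1 (0.05 ± 0.06, adjusted p = 0.596), the virion tether Bst2 (-0.13 ± 0.11, adjusted p = 0.41) and the membrane fusion inhibitor Ifitm3 (-0.11 ± 0.05, adjusted p = 0.0752) did not pass in limma. Many inbred strains are known to carry a defective Mx1.

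The immunity-related and guanylate-binding GTPases, which act on pathogen vacuoles and are induced strongly by interferon gamma, differed between HEC and capillary cells by -0.55 to 0.04 (log2). Gbp3 (-0.55 ± 0.09) and Gbp5 (-0.54 ± 0.07, limma adjusted p = 1.09e-05) were lower in HEC, 2 of 6 measured. Iigp1 (-0.17 ± 0.09), Irgm1 (-0.31 ± 0.14), Gbp4 (0.04 ± 0.10) and Gbp7 (-0.32 ± 0.15) did not pass. Parp9 (-0.19 ± 0.07), Dtx3l (0.16 ± 0.10) and Parp14 (0.02 ± 0.08), whose products act in ADP-ribosylation, lie together on chromosome 16, and none of them passed. In the same role group Trim30a (0.13 ± 0.13) did not pass either. Xaf1, a partner of apoptosis inhibitors, was lower by more (-0.91 ± 0.07, limma adjusted p = 1.52e-08), with capillary arrays from 0.03 to 0.72 and HEC arrays from -0.81 to -0.18. Ifi35, a leucine zipper protein, was lower too (-0.48 ± 0.07).

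In peptide loading, the immunoproteasome subunit Psmb9 (-0.31 ± 0.07) and the peptide transporter Tap1 (-0.26 ± 0.07) were lower in HEC, while the subunit Psmb8 (-0.14 ± 0.16, limma adjusted p = 0.562) did not pass. All 3 lie together on chromosome 17. In single tissues Psmb9 and Tap1 passed only in Peyer's patches. Each of the 24 calls held in all 26 alternative analyses that apply to this mean, and the count ran from 24 to 26. Without peripheral capillary arrays 1 and 2, 24 were lower and 2 higher, and Rsad2 differed by -1.96.

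Of the 27 measured genes with a promoter in the table, 14 carried the response element core, and 7 of these were lower in HEC with a median difference of -0.38. Of the 13 without it, 11 were lower with a median of -0.48. For the gamma-activated site core, 5 of 9 genes with a match and 13 of 18 without one were lower. These are counts over few genes and carry no test.

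Taken tissue by tissue, the direction recurred and the number of genes past the threshold varied. In peripheral nodes 12 were lower and 1 higher (limma, with 11.4% and 13.1% of all genes), with a median difference of -0.17. In mesenteric nodes 18 were lower and none higher (7.31% and 7.87% of all genes), with a median of -0.60. In Peyer's patches 19 were lower and 1 higher (10.6% and 8.90% of all genes), with a median of -0.45. Medians over all genes were -0.05, -0.0052 and 0.03. The difference was below 0 in all 3 tissues for 26 of the 38 genes, as for 25.2% of all genes.

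Cmpk2, Ifit1, Ifit2, Ifit3, Irf7, Oas2, Rsad2, Xaf1 and Zbp1 were called lower in each tissue, 9 of 38, where 4.82% of all genes were. For these and Oas1a, every HEC array also lay below every capillary array of its tissue, 10 of 38, where 6.09% of all genes did so. Another 6 of the 38 were called lower in only 1 tissue, as were 1807 of all 19938 genes. They were Irf1, Irf9, Psmb9 and Tap1 in Peyer's patches, and Usp18 and Rtp4 in mesenteric nodes. Rsad2 held the largest difference in peripheral nodes (-2.09 ± 0.19, adjusted p = 2.08e-07) and in mesenteric nodes (-2.87 ± 0.21, adjusted p = 2.69e-08). In Peyer's patches Ifit2 did (-1.59 ± 0.27, adjusted p = 0.000269), and Rsad2 differed by -1.44 ± 0.20 there (all limma). Ifit2 differed by -1.84 ± 0.25 in peripheral and -2.68 ± 0.28 in mesenteric nodes. Ifit3 differed by -2.06 ± 0.30 in mesenteric nodes, -1.41 ± 0.28 in Peyer's patches and -1.05 ± 0.26 in peripheral nodes. Across peripheral, mesenteric and Peyer's patch tissue Cmpk2 differed by -1.44 ± 0.20, -1.66 ± 0.22 and -1.03 ± 0.21, and Oas2 by -1.33 ± 0.12, -1.20 ± 0.13 and -1.29 ± 0.12.

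**Figure D3:**
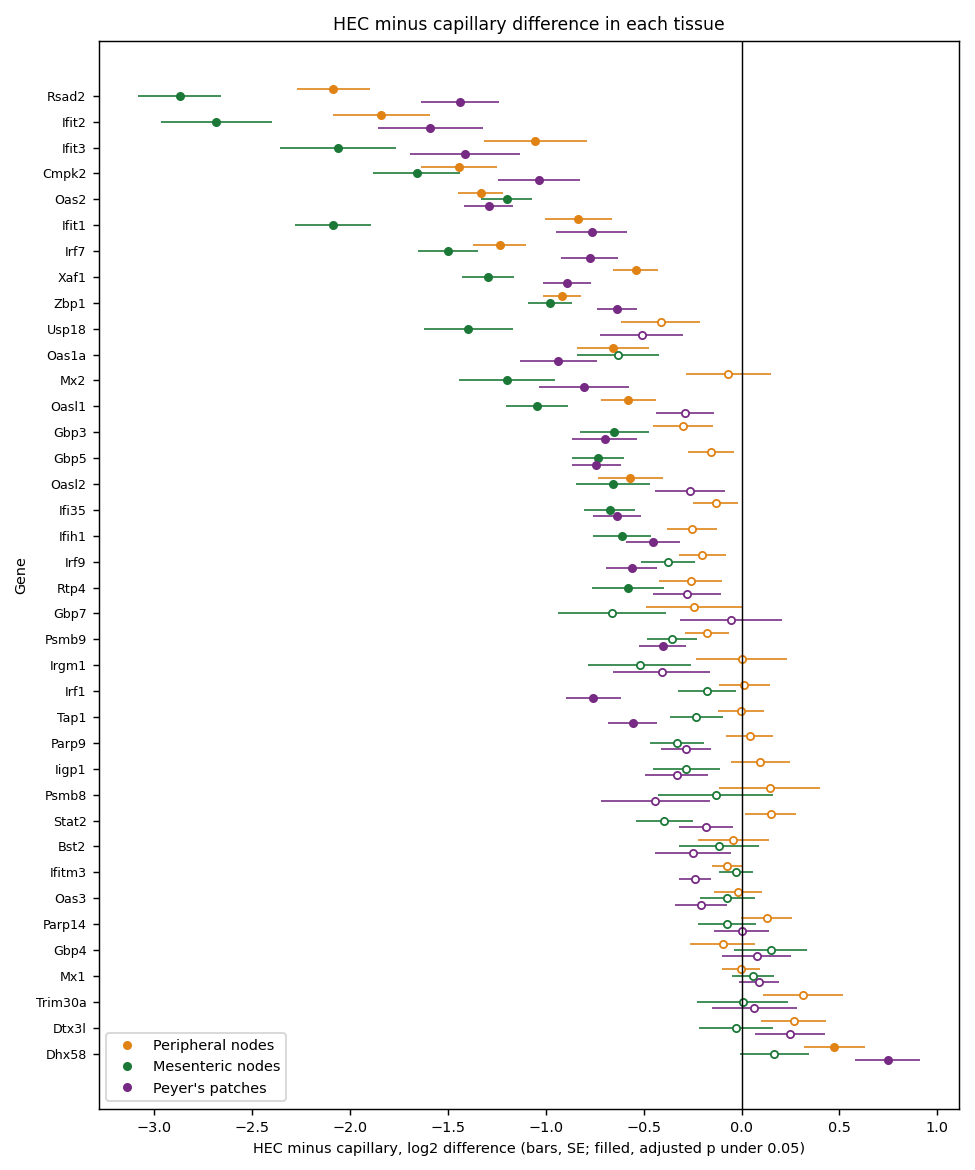
HEC minus capillary difference (log2, bars give the SE of the limma fit) of each gene in the 3 tissues, with filled points where the adjusted p was under 0.05. The 9 genes with 3 filled points lie at the top, led by Rsad2 (-2.87 in mesenteric nodes, green), and Dhx58 lies at the bottom to the right of 0.

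Without peripheral capillary arrays 1 and 2, which leaves array 3 as the only capillary sample of peripheral nodes and assumes it varies like the other groups, 8 genes were lower and 1 higher there, where 5.11% and 8.21% of all genes were in the same fit. Rsad2 then differed by -1.57 and Irf7 by -0.85 in that tissue, and both remained past the threshold. The calls of Ifit3 (-0.84, limma adjusted p = 0.18), Oasl1 (-0.31, adjusted p = 0.333), Oasl2 (-0.24, adjusted p = 0.532), Oas1a (-0.72, adjusted p = 0.118) and Dhx58 (0.52, adjusted p = 0.112) were lost. Single arrays also ended calls there: Oasl2 without capillary array 1 (-0.40, adjusted p = 0.1) or 2 (-0.58, adjusted p = 0.0559) and Oas1a without capillary array 3 (-0.62, adjusted p = 0.0571). Dhx58 lost its call without capillary array 2 or 3 or HEC array 1, 3 or 4, with differences of 0.33 to 0.46 and adjusted p up to 0.21.

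In mesenteric nodes, leaving out capillary array 2 ended the calls of Ifih1 (-0.51, limma adjusted p = 0.116) and Gbp3 (-0.41, adjusted p = 0.293). Gbp3 also lost its call without MAdCAM1+ array 3 (-0.59, adjusted p = 0.0526). Oasl2 lost it without capillary array 1 (-0.46, adjusted p = 0.359), MAdCAM1+/PNAd+ array 2 (-0.58, adjusted p = 0.0787) or MAdCAM1+ array 4 (-0.56, adjusted p = 0.0844), and Rtp4 without any of 8 arrays, 5 of them mesenteric, with adjusted p up to 0.292 (-0.50, without capillary array 1). In Peyer's patches Ifih1 lost its call without capillary array 1 or 2 or HEC array 1 or 2 (adjusted p up to 0.113), Mx2 without capillary array 2 or HEC array 1 or 2 (up to 0.112), and Psmb9 without capillary array 1 or 3 or HEC array 2 (up to 0.133). The differences there were -0.45 to -0.38 for Ifih1, -0.73 to -0.62 for Mx2 and -0.39 to -0.31 for Psmb9. Psmb9 also lost its call with array quality weights (-0.24, limma adjusted p = 0.0692), in a fit of only the compared groups (adjusted p = 0.101) and after quantile normalisation again (adjusted p = 0.0546), and Ifih1 in these last 2 (adjusted p = 0.0538 and 0.0624).

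Other lists moved beside these genes. Of 8 markers of pericytes and smooth muscle, the mural cells of vessels, 7 were lower in HEC and Tagln was higher, and their mean ran from -0.93 to -0.42 on HEC arrays and from -0.23 to 1.20 on capillary arrays. All 10 immediate-early genes, which respond within minutes to stress and tissue dissociation, were lower in HEC (limma, median -0.81), with means of -0.97 to -0.15 on HEC and 0.13 to 0.61 on capillary arrays. Of 7 B cell markers 6 were higher in HEC, with means of 0.22 to 0.93 on HEC and -0.15 to 0.12 on capillary arrays. Of 7 T cell markers 3 were higher. Of 10 pan-endothelial markers 7 were lower, while Pecam1, Eng and Erg did not pass.

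Of 7 markers of plasmacytoid dendritic cells, the main producers of type I interferon, Irf8 was higher and Tcf4 lower, and 1 of 10 macrophage and dendritic cell markers, Cd68, was lower. The plasmacytoid list also holds Bst2, one of the genes studied. Centred values cannot show whether a marker is absent. The part of these cells, of B cells and of handling in the differences of the interferon-stimulated genes was not tested. Nor was it tested for the other pathway genes described next, Irf4 and Irf8 among them.

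Other genes of the pathway differed in both directions. Of 6 receptor chains, 2 were higher and 1 lower in HEC (limma). Ifngr2, the signalling chain of the interferon gamma receptor, read 0.74, 0.50, 0.74 and 0.56 in peripheral HEC and 0.06, -0.22 and -0.47 in peripheral capillary cells. In Peyer's patches it read 0.47, 0.27 and 0.85 in HEC and -0.66, -1.05 and -1.02 in capillary cells. Neither pair of groups overlapped, and the mean difference was 1.08 ± 0.09 (limma adjusted p = 2.35e-08). Ifnar2, a chain of the type I receptor, was higher by 0.54 ± 0.10 (adjusted p = 0.000551), and Il10rb, shared by the type III and interleukin-10 receptors, differed by -0.97 ± 0.11 (adjusted p = 1.83e-06). Ifnar1 (-0.19 ± 0.10), Ifngr1 (-0.20 ± 0.08) and Ifnlr1 (-0.09 ± 0.06) did not pass.

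Among 8 measured kinases and regulatory factors, 4 were higher in HEC and 1 lower (limma). Jak1 (0.76 ± 0.07), Jak2 (0.54 ± 0.13), Irf8 (0.47 ± 0.07) and Irf4 (0.41 ± 0.06) were higher, and Irf2, which often opposes Irf1, was lower (-0.47 ± 0.06). Of 12 nucleic acid sensors and adaptors 3 were higher, led by the RNA sensor Ddx58 (0.44 ± 0.09), and 2 lower, led by Ddx60 (-0.74 ± 0.09), which also counts in the list of induced genes that follows. Of 10 negative regulators 1 was higher (Irf2bp2, 0.38 ± 0.06) and 3 lower (Usp25, Socs1 and Pias1, from -0.40 to -0.31). Of 13 interferon genes, Ifna12 (-0.30 ± 0.08), Ifna2 (-0.28 ± 0.06) and Ifna5 (-0.25 ± 0.07) were lower and none was higher, and whether any of them was expressed cannot be read from centred values. In MHC class I presentation 2 of 9 were lower, H2-Q4 (-0.35 ± 0.11) and Tap2 (-0.35 ± 0.08).

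A further list of 38 measured interferon-induced genes had 20 lower and 5 higher in HEC, with a median of -0.21. The lowest were Ly6e, a membrane-anchored protein (-1.84 ± 0.07), and the secreted glycoprotein Lgals3bp (-1.79 ± 0.21). The 3 ligands of the chemokine receptor CXCR3, which draw activated T cells, went the other way in the mean of 3 tissues. Cxcl10 read 0.70, 0.85, 0.37 and 0.76 in peripheral HEC, 0.76 and 0.46 (MAdCAM1+/PNAd+) and 0.67 and 0.60 (MAdCAM1+) in the mesenteric sorts and 1.60, 1.73 and 2.02 in Peyer's patch HEC, and from -1.07 to 0 on the 8 capillary arrays. Every HEC array lay above every capillary array, with a difference of 1.56 ± 0.09 (limma adjusted p = 1.87e-10). Cxcl11 (1.65 ± 0.15) and Cxcl9 (1.04 ± 0.10) were higher too. Cxcl9 was named after its values were seen. It read 0.76, 0.85 and 0.55 in peripheral capillary cells and 0.58, 0.57, 0.39 and 0.51 in peripheral HEC. These overlap, with the highest values in capillary cells, so Cxcl9 was not higher in HEC of that tissue. Its mean was -2.07 ± 0.08 (SD, n = 3) in Peyer's patch capillary cells, below every other group.

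**Figure D4:**
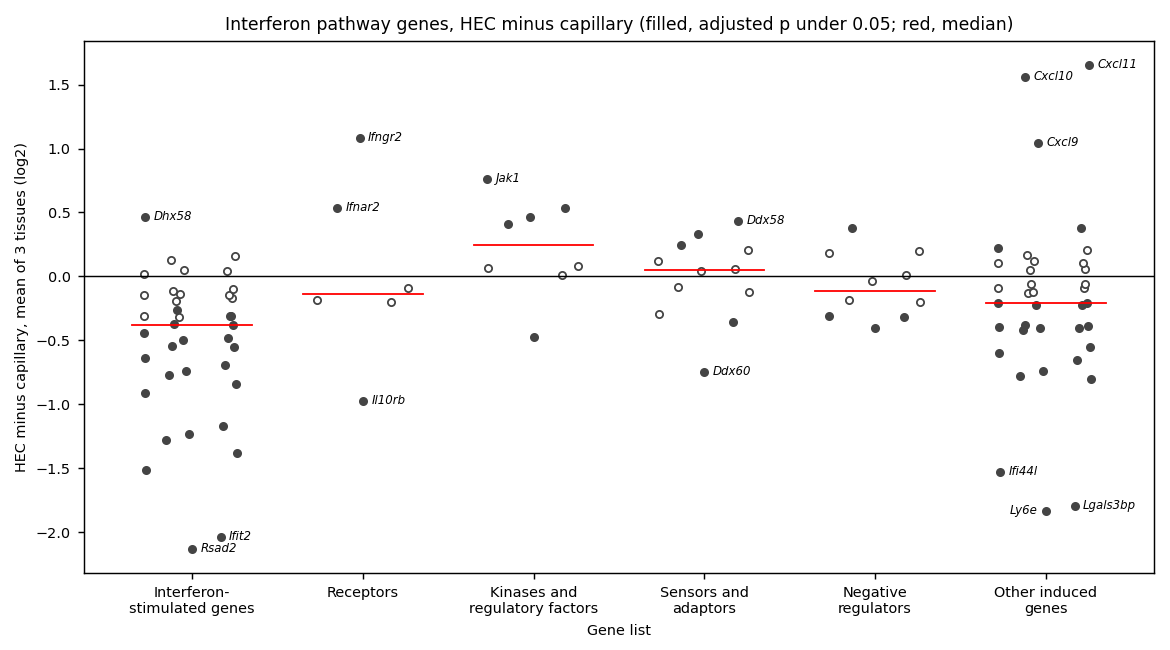
HEC minus capillary difference (log2, mean of 3 tissues) of each measured gene in 6 lists, with filled points at an adjusted p under 0.05 in limma and a red line at the list's median. The interferon-stimulated genes have a median of -0.38 and the other induced genes one of -0.21, while Ifngr2, Jak1 and the 3 CXCR3 ligands lie well above 0.

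Within capillary endothelium, Peyer's patches and peripheral nodes differed in both directions. Of the 38 genes 5 were higher and 3 lower in Peyer's patches (limma), where 2.40% and 2.24% of all genes were, and the median difference was 0.06 against -0.02 over all genes. With each array centred on its median, 3 were higher and 3 lower. Irf1 read 1.05, 1.16 and 1.08 in Peyer's patch, 0.0041, 0.04 and -0.13 in peripheral and 0.56 and 0.16 in mesenteric capillary cells. Peyer's patch arrays were above all others, by 1.12 ± 0.14 against peripheral cells (limma adjusted p = 5.89e-05) and by 0.73 ± 0.16 against mesenteric cells (adjusted p = 0.0172). Its 2 probe sets gave 1.25 and 0.99 for the first of these, and 0.82 and 0.65 for the second.

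Iigp1, the GTPase Irga6, read 1.19, 1.21 and 0.92 in Peyer's patch, 0.41, -0.20 and -0.17 in peripheral and 0.33 and -0.21 in mesenteric capillary cells, with no overlap (1.09 ± 0.16 and 1.04 ± 0.18, limma adjusted p = 0.00031 and 0.00319). Gbp5 read 0.74, 0.75 and 0.66 in Peyer's patch, 0.07, -0.18 and -0.17 in peripheral and 0.02 and 0.19 in mesenteric capillary cells, again with no overlap (0.81 ± 0.13 and 0.61 ± 0.14, adjusted p = 0.000565 and 0.0293). Of the windows shown above, those of Irf1 and Gbp5 hold gamma-activated site cores, and Iigp1 had no promoter in the table. The part of these cores in the differences was not tested. Over all 9 measured genes with that core, 2 were higher here and none lower, with a median of 0.13, and over the 18 without it 1 was higher and 2 lower, with a median of 0.04. Irgm1 (0.92 ± 0.25, adjusted p = 0.0418) and Mx2 (0.86 ± 0.23, adjusted p = 0.0397) were also higher than in peripheral cells (limma), but lost their calls in 8 and 10 of the 19 fits that left out an array. The highest adjusted p came with a difference of 0.72 for Irgm1 without peripheral capillary array 3 (adjusted p = 0.191) and 0.74 for Mx2 without array 2 of that group (adjusted p = 0.19), and both also lost the call without any 1 Peyer's patch capillary array. Mx2 lost it in a fit of only the compared groups as well (adjusted p = 0.108).

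Rsad2, Irf7 and Zbp1 were lower in Peyer's patch capillary cells. Their arrays are given above, and Peyer's patch arrays lay below all other capillary arrays for each. Against peripheral cells Rsad2 differed by -1.26 ± 0.20 (limma adjusted p = 0.000635), Irf7 by -0.89 ± 0.14 (adjusted p = 0.000785) and Zbp1 by -0.77 ± 0.10 (adjusted p = 0.000141). Without peripheral capillary arrays 1 and 2 the call of Zbp1 held, while those of Rsad2 (-0.74, adjusted p = 0.177) and Irf7 (-0.50, adjusted p = 0.222) were lost, as was that of Irgm1 (1.32, adjusted p = 0.0736).

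Against mesenteric capillary cells 3 genes were higher and 4 lower in Peyer's patches, where 1.02% and 0.833% of all genes were, and 3 were higher and 2 lower with arrays centred on their median. The higher ones were Iigp1, Irf1 and Gbp5 with the values just given. The lower ones were Rsad2 (-1.71 ± 0.22, limma adjusted p = 0.000249), Usp18 (-0.99 ± 0.24, adjusted p = 0.0401), Irf7 (-0.78 ± 0.16, adjusted p = 0.0138) and Zbp1 (-0.47 ± 0.12, adjusted p = 0.0492). With 2 mesenteric capillary arrays these calls rest on few samples, and only that of Rsad2 held in all 27 alternatives. Iigp1 lost its call without mesenteric capillary array 2 (0.78, adjusted p = 0.125). Irf1 lost it without that array (0.53, adjusted p = 0.387), with its widest-range probe set alone (0.65, adjusted p = 0.383) or without Peyer's patch capillary array 2 (0.70, adjusted p = 0.0757). Irf7 lost it without mesenteric capillary array 1 (-0.59, adjusted p = 0.313) or Peyer's patch capillary array 2 (-0.75, adjusted p = 0.0617) or 3 (-0.70, adjusted p = 0.0673). Gbp5 lost it without any of the 5 arrays compared (0.53 to 0.69, adjusted p up to 0.36). Usp18 and Zbp1 lost theirs in 13 and 15 of the 19 fits that left out an array, with adjusted p up to 0.609 and 0.401, both without mesenteric capillary array 1 (-0.71 and -0.43). Mesenteric and peripheral capillary cells differed in 0 of the 38 genes by limma (0.291% of all genes), and the 2 mesenteric capillary arrays leave small differences undetectable.

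Markers of intestinal epithelium moved with these tissue differences. The mean of the 8 markers was 0.12, 0.92 and 1.30 on the Peyer's patch capillary arrays and -0.06 to 0.14 on the peripheral capillary arrays, with 2 of 8 called higher by limma. It was 0.31 to 0.88 on Peyer's patch HEC and -0.24 to 0.01 on peripheral HEC arrays, with 5 of 8 called higher. On the capillary array with the lowest epithelial mean, Irf1 read 1.05, Iigp1 1.19 and Gbp5 0.74. Values of 1 array cannot separate epithelial from endothelial RNA. The mean of the 8 pericyte and smooth muscle markers was -0.23 to 0.15 on Peyer's patch and 0.43 to 1.20 on peripheral capillary arrays, with 3 of 8 called lower. The part of epithelial and mural cell RNA in these tissue differences was not tested.

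**Figure D5:**
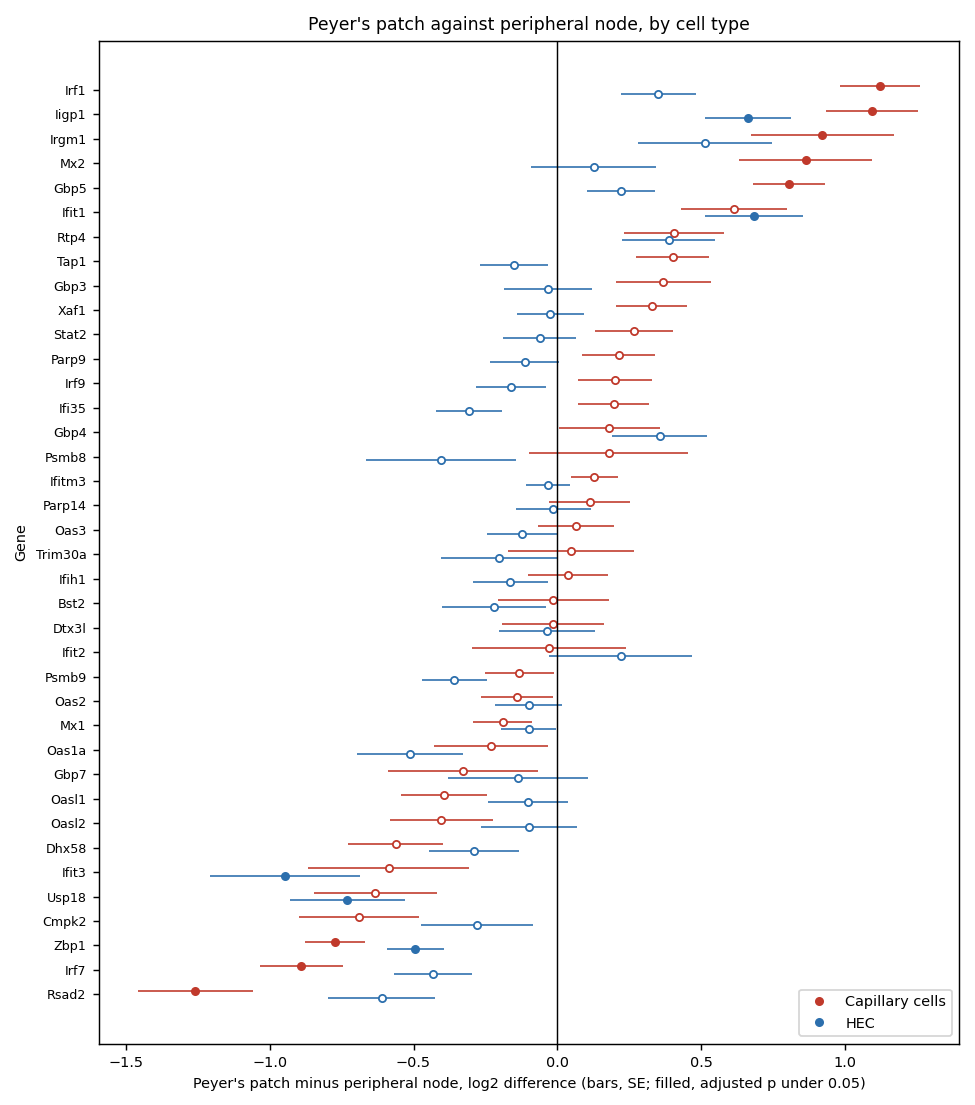
Peyer's patch minus peripheral node difference (log2, bars give the SE of the limma fit) of each gene in capillary cells and in HEC, with filled points at an adjusted p under 0.05. Irf1 (1.12) and Iigp1 (1.09) stand at the top and Rsad2 (-1.26) at the bottom for capillary cells, and Iigp1 and Ifit1 are filled on the right for HEC.

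Within high endothelium Iigp1 stood highest in Peyer's patches. Between Peyer's patch and peripheral HEC 2 were higher and 3 lower (limma), where 2.16% and 4.49% of all genes were, and 2 were higher and 1 lower after arrays were quantile-normalised again. Iigp1 read 0.71, 0.67 and 0.94 in Peyer's patch HEC, 0.08, 0, 0.28 and 0.07 in peripheral HEC and -0.32 and -0.47 (MAdCAM1+/PNAd+) and 0 and -0.09 (MAdCAM1+) in the mesenteric sorts. Peyer's patch arrays lay above all others, by 0.66 ± 0.15 (adjusted p = 0.011) against peripheral and 0.99 ± 0.15 (adjusted p = 0.00171) against mesenteric HEC (both limma).

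Ifit1 read -0.02, -0.25 and 0.14 in Peyer's patch HEC, -1.09, -0.80, -0.43 and -0.60 in peripheral HEC and -1.59 and -1.15 (MAdCAM1+/PNAd+) and -1.39 and -1.19 (MAdCAM1+) in the mesenteric sorts. The Peyer's patch arrays stood above all others and the 4 mesenteric arrays below all others, with differences of 0.68 ± 0.17 (limma adjusted p = 0.0224) against peripheral and 1.28 ± 0.17 (adjusted p = 0.000526) against mesenteric HEC. The first of these lost its call without peripheral HEC array 1 (0.56, adjusted p = 0.0645) or 2 (0.66, adjusted p = 0.0538) or Peyer's patch HEC array 1 (0.67, adjusted p = 0.0866). Ifit3 went the other way than its neighbour Ifit1. It read -1.52, -1.50 and -0.98 in Peyer's patch HEC and -0.43, -0.56, 0.06 and -0.60 in peripheral HEC, with no overlap and a difference of -0.95 ± 0.26 (adjusted p = 0.0388).

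Usp18 (-0.73 ± 0.20, limma adjusted p = 0.037) and Zbp1 (-0.49 ± 0.10, adjusted p = 0.00449) were lower in Peyer's patch than in peripheral HEC as well. Of the 5 calls that of Iigp1 held in all alternatives. Ifit3 lost its call without any 1 of the 4 peripheral HEC arrays or without Peyer's patch HEC array 1 or 2 (-1.02 to -0.80, adjusted p up to 0.172). Usp18 lost it without peripheral HEC array 2, 3 or 4 or Peyer's patch HEC array 1 or 2 (-0.81 to -0.54, adjusted p up to 0.231). Zbp1 lost it where only the compared groups were fitted (adjusted p = 0.0514).

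Mesenteric HEC differed from peripheral HEC in Zbp1 alone (-0.37 ± 0.09, limma adjusted p = 0.0373), where 1.97% of all genes were called lower, and that call was lost in 7 of the 19 fits that left out an array, among them each without 1 of the 4 mesenteric HEC arrays or peripheral HEC array 3 or 4, with values of -0.38 to -0.30 and adjusted p up to 0.144. Against mesenteric HEC, Peyer's patch HEC were higher in Ifit1, Iigp1 and Gbp5 (0.60 ± 0.12, adjusted p = 0.0149), 3 of 38, where 0.557% of all genes were. Gbp5 lost its call without MAdCAM1+/PNAd+ array 1 (0.58, adjusted p = 0.054) or MAdCAM1+ array 3 (0.53, adjusted p = 0.064), and where only the compared groups were fitted (0.60, adjusted p = 0.194). The mesenteric sorts differed from each other in 0 of the 38 genes by limma (0.0201% of all genes), and 2 arrays in each leave small differences undetectable.

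Interaction terms tested whether the HEC minus capillary difference itself depended on the tissue. For Peyer's patches against peripheral nodes, Irf1 was called (-0.77 ± 0.19, limma adjusted p = 0.0298). This is 1 of 38, a smaller share than the 4.05% of all genes called. HEC minus capillary was 0.01 ± 0.13 for Irf1 in peripheral nodes and -0.76 ± 0.14 in Peyer's patches, and the 2 probe sets gave 0.22 and -0.19 in the former and -0.80 and -0.71 in the latter. For mesenteric against peripheral nodes Ifit1 was called (-1.25 ± 0.26, adjusted p = 0.0433), where 0.416% of all genes were. For Peyer's patches against mesenteric nodes Ifit1 (1.32 ± 0.27, adjusted p = 0.0245) and Rsad2 (1.43 ± 0.29, adjusted p = 0.0251) were called, where 0.752% of all genes were. For Ifit1, HEC minus capillary was -2.09 ± 0.19 in mesenteric nodes, -0.83 ± 0.17 in peripheral nodes and -0.77 ± 0.18 in Peyer's patches. These 4 calls were each lost in 6 to 12 of the 19 fits that left out an array. Among these fits the highest adjusted p was 0.083 for Irf1 without Peyer's patch capillary array 2 (-0.74), 0.42 and 0.226 for the Ifit1 calls without mesenteric capillary array 1 (-0.98 and 1.04), and 0.193 for Rsad2 without mesenteric capillary array 2 (1.23). Without peripheral capillary arrays 1 and 2 the first of the Ifit1 calls (-1.24, adjusted p = 0.279) and that of Irf1 (-0.88, adjusted p = 0.105) were lost. With its widest-range probe set alone Irf1 was not called either (-0.52, limma adjusted p = 0.36).

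In the interaction of Peyer's patches against peripheral nodes 4 of 8 pericyte and smooth muscle markers were called higher and 3 of 10 immediate-early genes lower, and their part in that of Irf1 was not tested.

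The genes also varied among arrays of one group. Peripheral capillary array 1 was the highest of its group for 28 of the 38 genes, and the mean of the 38 was 0.50 there against 0.23 and 0.14 on arrays 2 and 3. Peyer's patch HEC array 3 was the highest of its group for 31 genes and array 2 the lowest for 25, with means of 0.03 and -0.34. Peripheral HEC array 3 was the highest of its 4 for 26 genes and the lowest for none. How often other genes ranked so on these arrays was not counted. The median SD in Peyer's patch HEC was 0.193 over the 38 genes and 0.188 over all genes. It was 0.239 and 0.134 in peripheral capillary cells and 0.172 and 0.123 in peripheral HEC.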

How the data were processed

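RNA was amplified and hybridised to 19 whole-transcript arrays, per the labels' protocols. The deposited values are log2 signals, and the submitters' processing notes name RMA and Partek without versions. They ran from -4.09 to 6.13 with an exact 0 in 54.47% of probe sets, so each probe set had been centred, and the baseline is not stated. RMA compresses large folds.

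Of 28856 probe sets, 21789 carried 1 gene symbol, 1621 several and 5446 were unnamed here. Through their identifiers 21698 matched a RefSeq gene table, with 0 symbols changed. Probe sets were averaged per gene, which concerned 999 of the 19938 genes and, among those studied, Irf1.

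With limma 3.58.1 (lmFit, eBayes) in R 4.3.3, group means of the 7 groups were estimated in 1 model over the 19 arrays, with 12 residual and 4.62 prior degrees of freedom. Two-sided p-values were adjusted by Benjamini-Hochberg over all genes in each of 14 contrasts, at a threshold of 0.05. Mesenteric HEC are the mean of both sorts. On simulated data the model recovered 98 of 100 genes changed by 1 log2 unit and 100 of 100 changed by 2 between Peyer's patch and peripheral HEC, and called 8 of 19738 unchanged genes. The noise was drawn independently for each gene and array, so variation that genes share on an array was not simulated. Recovery was counted for no other contrast.

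The genes, lists and tests were chosen with earlier results of these data known. All measured genes of the set may be named. Values by array were given for those with the largest differences and for a fixed list, and in each other list up to 4 called genes by absolute difference and every receptor. Promoters came from RefSeq (GRCm38.p6). Alternatives were a replicate block, the probe set with the widest range, quantile normalisation again, arrays centred on their median, a filter on range (9969 genes kept), array quality weights, a fit of only the compared groups, and leaving out each array or peripheral capillary arrays 1 and 2.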

Additional observations from a re-analysis of the deposited data

Results flagged for a closer look

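In peripheral HEC, the only group of 4 arrays, Irf9 on array 2 lay apart from the others. It read -0.13, and the 4 arrays ran from -0.13 to -0.02, so its gap to the nearest array was 0.862 of the group's range. It was 1 of 38 genes tested this way, where chance marks about 1 in 20.

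By the interaction terms in limma, the difference between HEC and capillary cells was called dependent on the tissue for 3 genes. None of these calls held in all 27 alternatives. For Irf1 it was lower in Peyer's patches than in peripheral nodes (-0.77, limma adjusted p = 0.0298), 1 of 38, a smaller share than 4.05% of all genes. For Ifit1 it was lower in mesenteric than in peripheral nodes (-1.25, adjusted p = 0.0433), where 0.416% of all genes were called. The Ifit1 difference was also higher in Peyer's patches than in mesenteric nodes (1.32, adjusted p = 0.0245). For Rsad2 it was higher in Peyer's patches than in mesenteric nodes (1.43, adjusted p = 0.0251), where 0.752% of all genes were called.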

How the results depend on the processing

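For HEC minus capillary, all 24 calls of the mean over tissues held under each of 26 alternatives (a fit of only the compared groups does not apply to this mean). Under 27 alternatives 8 of 13 calls in peripheral nodes, 14 of 18 in mesenteric nodes and 17 of 20 in Peyer's patches held. No called gene reversed its direction. The cause of the changes below was not tested. Leaving out each array in turn gave 24 to 26 calls for the mean, 11 to 14 in peripheral nodes, 15 to 19 in mesenteric nodes and 17 to 22 in Peyer's patches. It gave 2 to 10 for Peyer's patch against peripheral HEC (5 in the full fit), 0 to 4 for mesenteric against peripheral HEC (1) and 2 to 4 for Peyer's patch against mesenteric HEC (3). In capillary cells it gave 6 to 10 for Peyer's patches against peripheral nodes (8), 0 to 1 for mesenteric against peripheral nodes (0) and 2 to 7 for Peyer's patches against mesenteric nodes (7). For the interactions it gave 0 to 4 for Peyer's patches against peripheral nodes (1), 0 to 2 for mesenteric against peripheral nodes (1) and 0 to 2 for Peyer's patches against mesenteric nodes (2).

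With array quality weights there were 14 calls of 38 for Peyer's patch against peripheral HEC (36.1% of all genes were called), 6 for mesenteric against peripheral HEC (5.61%), 8 for Peyer's patch against mesenteric HEC (12.9%), 8 for the interaction of Peyer's patches against peripheral nodes (19.9%) and 5 for that against mesenteric nodes (2.84%). With quantile normalisation again there were 3 for Peyer's patch against peripheral HEC, 2 for mesenteric against peripheral capillary cells, and 2, 2 and 4 for the interactions in the order above. Without peripheral capillary arrays 1 and 2 there were 5 for Peyer's patch against peripheral capillary cells and 0 for both interactions with peripheral nodes. With only the compared groups there were 2 for mesenteric against peripheral HEC, 3 for Peyer's patch against mesenteric capillary cells, 0 for the interaction of mesenteric against peripheral nodes and 1 for that of Peyer's patches against mesenteric nodes. The widest-range probe set left 0 for the interaction of Peyer's patches against peripheral nodes. Arrays centred on their median left 0 for that of mesenteric against peripheral nodes. Apart from array quality weights, the counts in this section carry no share of all genes called in the same fit. They describe how calls moved and do not set these genes apart from others.

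With the replicate block there were 3 calls for Peyer's patch against peripheral HEC, 0 for the interaction of mesenteric against peripheral nodes, 1 for that of Peyer's patches against mesenteric nodes, and 24 for the mean of HEC minus capillary. The array numbers share no stated source, and deviations of same-numbered arrays had a median correlation of 0.08 over 41 pairs (-0.43 to 0.56), against -0.01 over 112 other pairs. With the filter on range, the median covers only the 9969 genes kept, while the difference of each gene stays the same. That median stood apart from the median of all genes by 0.14 for HEC minus capillary in peripheral nodes. The shift was -0.13 for Peyer's patch against peripheral HEC and -0.15 for the interaction of those tissues. Another background correction and a filter on dim probes were not run, as the values came summarised and centred.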
